A study of Mus musculus with 12 samples.

Results

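The 10 genes followed here are genes of neural progenitors and radial glia, measured across Top1 deletion and topotecan in cultured mouse cortical neurons, namely Nes, Vim, Sox2, Pax6, Hes1, Hes5, Fabp7, Id1, Id3 and Msi1. They were taken by symbol from a table of raw RNA-seq read counts, which holds all 10 of them among 23893 genes. The set was chosen by the higher Nes level in topotecan-treated cells of these same libraries, to ask whether Nes moved together with other progenitor genes. The Nes values therefore describe the choice and carry no test, while the other 9 genes were tested in fits over all 23893 genes.

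Cortical cultures were prepared from mouse embryos at E13.5-15.5 (embryonic days) and infected at 3 days in vitro (DIV 3) with lentivirus. By the study's methods all cultures of the RNA-seq carried the floxed allele (Top1 fl/fl), whereas the labels speak of wild-type C57BL6/J females as the source. Cells with a tdTomato virus are called WT and cells with tdTomato-P2A-CRE, in which the recombinase removes an exon of Top1, are called Top1 cKO. Both viruses used the CaMKIIα promoter, which is active in neurons and not in glia or progenitors, and 85 to 90% of cells were transduced. At DIV 15 the cells received 300 nM topotecan (Topot), a drug that traps TOP1 on DNA, or vehicle (Veh, 0.003% DMSO), for 3 days. RNA came from whole cultures, 3 per group, giving vehicle and topotecan groups of each genotype (WT-Veh, WT-Topot, and likewise Top1 cKO-Veh, Top1 cKO-Topot).

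Radial glia are the stem cells of the embryonic cortex. They carry the intermediate filament proteins nestin and vimentin, are kept in the stem cell state by transcription factors such as SOX2 and PAX6 and by Notch signalling through HES proteins, and give rise to neurons first and to astrocytes later. Astrocytes keep several of these genes, so a level in a mixed culture does not name a cell type.

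The libraries held 1730164 to 4583777 counts, so that 3 counts corresponded to 0.687 to 1.73 CPM (the share of a library's counts in parts per 1000000, with library sizes scaled by the TMM factors of edgeR). Top1 lay between 27.1 and 44.0 CPM in the 6 CRE libraries and between 117 and 163 CPM in the 6 tdTomato libraries, and the log2 fold change of Top1 cKO-Veh against WT-Veh was −1.98 ± 0.23 (± SE, adjusted p = 0.00119). The libraries with replicate number 1 stood apart from numbers 2 and 3 in every group, with the highest summed level of 9 astrocyte markers (2097 to 6058 CPM) and of 10 mural and fibroblast markers (128 to 285 CPM). Same-numbered libraries deviated together, so values are given without and, where the call differed, with the replicate number entered as a block. Blocked p-values rest mostly on a spread estimated over all genes, so small ones do not measure the 3 cultures of a gene alone. In bulk RNA, fewer cells of a type and less RNA per cell cannot be told apart.

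On the mouse genome build NCBIM37 (mm9), all 10 genes lie on the plus strand and are short, spanning 1.16 kb (Id1) to 34.3 kb (Pax6). Nes is at chr3:87775000-87784373, Vim at chr2:13495554-13504453, Hes1 at chr16:30064470-30067882 and Id3 at chr4:135699412-135701670. Sox2 sits inside the noncoding gene Sox2ot on the same strand (6.37 to 16.9 CPM), and Pax6 overlaps Elp4 on the other strand (7.57 to 19.9 CPM), so reads in the shared stretches cannot be assigned with certainty. Hes5 and Msi1 also overlap genes on the other strand.

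The sequence before Nes is shown because Nes is the gene the set was chosen by. It was taken from the RefSeq promoter window (GRCm38), matched exactly once on the chromosome at chr3:87774765-87774999 of NCBIM37 and printed 5′ to 3′ on the plus strand, from base −250 to base −16 relative to the RefSeq start. Capitals mark the GC boxes.
Nes: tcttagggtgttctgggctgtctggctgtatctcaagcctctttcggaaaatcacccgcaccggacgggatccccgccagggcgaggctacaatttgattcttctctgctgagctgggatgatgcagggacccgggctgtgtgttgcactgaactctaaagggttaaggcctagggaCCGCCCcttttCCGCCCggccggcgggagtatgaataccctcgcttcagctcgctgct

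Of these bases 58.7% are G or C. Both GC boxes (GGGCGG on either strand) lie close together, with first bases at −73 and −62. Of 32851 RefSeq windows of 250 bases, 32.7% held a GC box. The Nes window held no TATA box (TATAAA, 12.4% of windows), CCAAT box (CCAAT, 33.8%), AP-1 site (TGANTCA, 6.75%), RBPJ site (TGGGAA, 21.6%) or E-box (CANNTG, 66.2%), all searched on both strands with none of these patterns contained in another. RefSeq windows were at hand for 7 of the 10 genes. Among them Vim held a TATA box at −32 and CCAAT boxes at −196 and −94, Sox2 and Id3 held 2 GC boxes each, Hes5 held 2 RBPJ sites at −226 and −82, and Fabp7 held 1 at −249. RBPJ is the DNA-binding partner of Notch. The Nes and Vim windows shared none of the 6 motifs.

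All 10 genes averaged 1 CPM or more in every group. Per kilobase of annotated exon, Vim was the most abundant, at 94.7 ± 61.7 CPM per kb in WT-Veh (mean ± SD, n = 3), and Pax6 had the lowest value, at 0.211 ± 0.0822. The exons of all annotated transcripts were merged for this, which gave Pax6 19833 bases, while the counts were over RefSeq exons. The last rank of Pax6 may therefore come from that length. By CPM in WT-Veh, Hes5 (2.53 ± 1.89) and Hes1 (3.92 ± 0.784) had lower means than Pax6 (4.18 ± 1.63). Sox2 (27.2 ± 5.28), Id3 (26.0 ± 32.5) and Fabp7 (22.4 ± 10.2) followed Vim and did not differ from each other beyond their spread. Nes stood at 7.04 ± 1.82 CPM per kb, near Id1 at 9.07 ± 6.50. Hes1 (1.93 ± 0.385), Hes5 (1.86 ± 1.39) and Msi1 (1.24 ± 0.693) were low.

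Nes, which encodes the intermediate filament protein nestin, measured 55.0, 48.2 and 32.3 CPM in WT-Veh replicates 1 to 3 and 127, 90.2 and 100.2 CPM in WT-Topot. In Top1 cKO-Veh it measured 80.9, 57.5 and 51.1 CPM, and in Top1 cKO-Topot 174, 200.3 and 84.8 CPM. Every topotecan library lay above every vehicle library, also across the genotypes, and the lowest topotecan value (84.8 CPM) was close to the highest vehicle value (80.9 CPM). In the order of their means the groups ran WT-Veh (45.2 ± 11.7), Top1 cKO-Veh (63.2 ± 15.7), WT-Topot (106 ± 18.9) and Top1 cKO-Topot (153 ± 60.5 CPM), where the vehicle groups overlapped and so did the topotecan groups. The log2 fold change with topotecan was 1.22 ± 0.22 (± SE) in WT cells and 1.29 ± 0.27 in Top1 cKO cells, and that of Top1 deletion without the drug was 0.47 ± 0.25. All 3 replicate numbers showed the higher level with topotecan in both genotypes, by 0.89 to 1.61 in WT cells and by 0.72 to 1.78 in Top1 cKO cells on the log2(CPM + 1) scale.

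**Figure D1:**
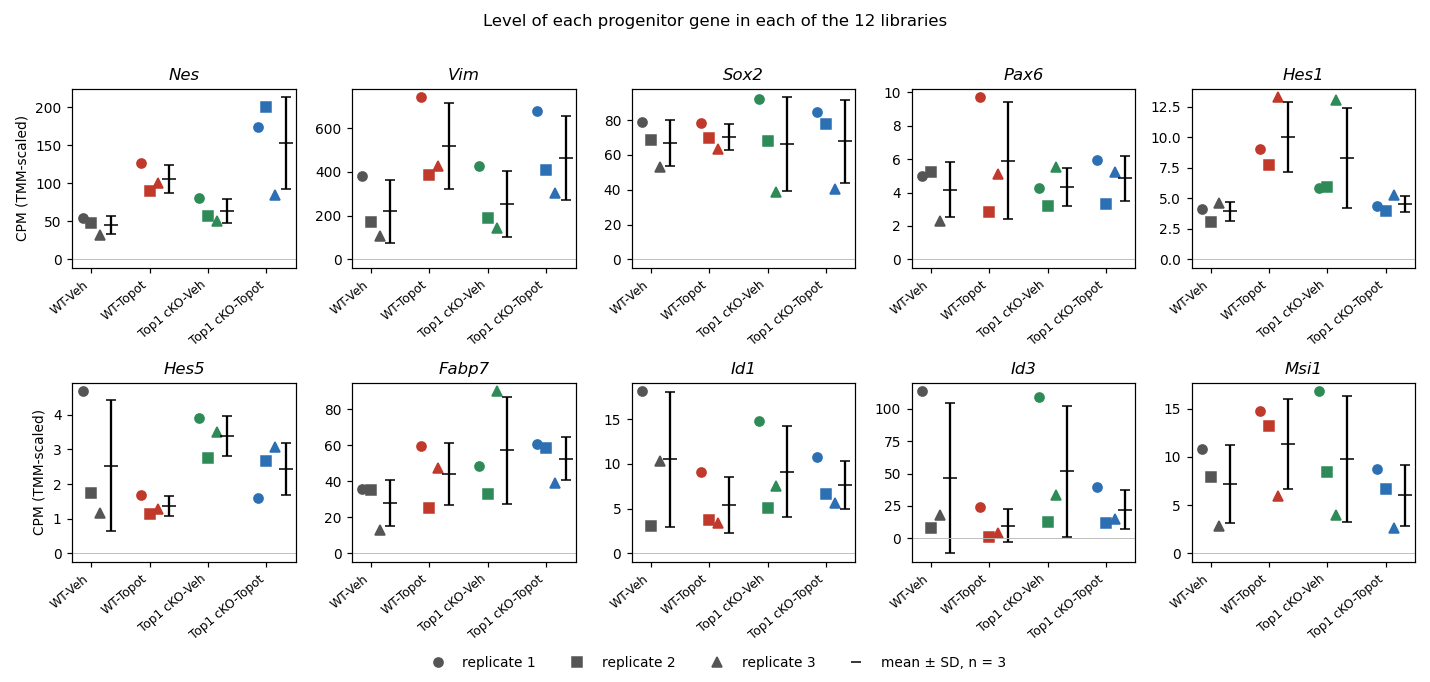
Level of each of the 10 genes in CPM (y axis, linear, each panel with its own range) in the 12 libraries, grouped on the x axis; symbols mark the replicate number and the black dash and bar give the mean ± SD of 3 cultures. Nes lay between 84.8 and 200.3 CPM in the topotecan libraries, all above the vehicle libraries, whereas the Sox2 ranges of all groups overlapped and Vim and Id3 were highest in replicate 1 of each group.

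The other 9 genes did not move as one group. WT-Topot against WT-Veh asked for the effect of the drug in cells with TOP1. None of the 9 passed an FDR of 0.01 in edgeR's quasi-likelihood test without the block, where 2.72% of all genes did, nor in DESeq2, and 2 higher and 1 lower gene had an unadjusted p under 0.05 without the block, as did 13.1% of all genes in either direction. With the block 3 passed, Vim and Hes1 upward and Id3 downward, beside 8.25% of all genes. Here and below, the 23893 genes behind the shares that passed include 5182 with no count in any library. Those could not pass and lower the shares, whereas all 9 genes averaged 1 CPM or more. The 3 libraries of each group did not overlap for Vim and Hes1, 2 of the 9, beside 26.0% of the 13720 genes that averaged 1 CPM or more. The median log2 fold change of the 9 was 0.45, with 6 positive, and that of all 13720 genes was 0.03.

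Top1 cKO-Topot against Top1 cKO-Veh asked for the effect of the drug in cultures with Top1 deleted in neurons. The CaMKIIα promoter is not active in glia or progenitors, so such cells may have kept Top1. By the paper, the TOP1 that was left most likely came from uninfected neurons, non-neuronal cells or both. Which cells gave the values of the Top1 cKO groups was not tested. None of the 9 genes passed without the block (0.00837% of all genes did) and 1 had an unadjusted p under 0.05 (4.32% of all genes). With the block 2 passed, Vim upward and Id3 downward (2.59% of all genes). Only Hes1 of the 9 had groups that did not overlap, with the topotecan group lower, beside 11.7% of all genes. The median of the 9 was −0.21.

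Top1 cKO-Veh against WT-Veh asked for the effect of the deletion alone. Again none of the 9 passed without the block (0.172% of all genes) and 2 had an unadjusted p under 0.05 (8.72%), and with the block only Fabp7 passed, upward (5.56%). Hes1 alone of the 9 did not overlap between the groups (19.9% of all genes). The same 3 WT-Veh libraries served as the reference for 3 comparisons, so these comparisons are not independent.

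Between the topotecan groups, Top1 cKO-Topot against WT-Topot, none of the 9 passed without the block (2.49% of all genes), 2 had an unadjusted p under 0.05 (14.2%), and 1, Id3, passed with the block (8.69%), while Hes1 alone did not overlap (27.4%). In Top1 cKO-Topot against WT-Veh none passed without the block (1.68%), 2 had an unadjusted p under 0.05 (3217 of 23893 genes), Vim and Fabp7 passed with it (7.37%), and Fabp7 alone of the 9 did not overlap (26.5%). The interaction, which asks whether topotecan acted differently in the genotypes, was passed by none of the 9 without the block (0.435% of all genes) and by Hes1 with it (3.97%), and 1 gene had an unadjusted p under 0.05 without it (8.23%). DESeq2 called none of the 9 in these comparisons either.

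**Figure D2:**
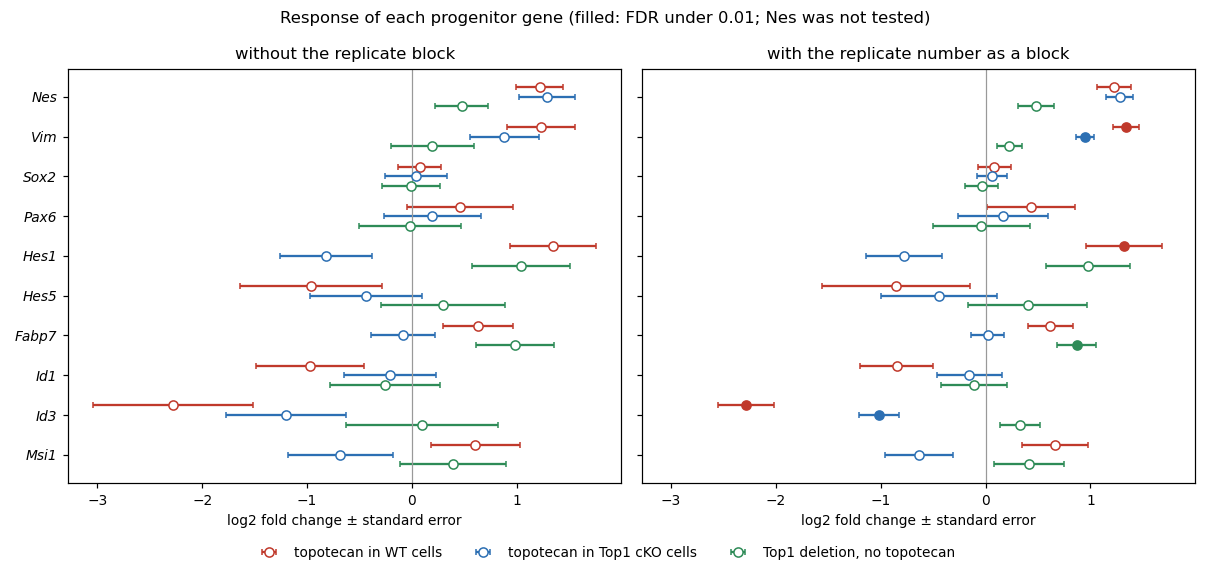
Log2 fold change ± SE (x axis) of each gene (y axis) for topotecan in WT cells, topotecan in Top1 cKO cells and Top1 deletion without topotecan, without the replicate block on the left and with it on the right; filled points passed an FDR of 0.01, and Nes was not tested. No point is filled on the left, and on the right Vim, Hes1 and Id3 are filled for topotecan in WT cells, Vim and Id3 for topotecan in Top1 cKO cells, and Fabp7 for the deletion.

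Vim encodes vimentin, the filament protein with which nestin assembles. It measured 383, 173 and 108 CPM in WT-Veh replicates 1 to 3 and 742, 385 and 427 CPM in WT-Topot. In Top1 cKO-Veh it measured 425, 190.1 and 145 CPM, and in Top1 cKO-Topot 678, 409 and 303 CPM. Replicate 1 was the highest of each group, and every topotecan library lay above the vehicle library of its own number.

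With topotecan Vim was 1.23 ± 0.32 log2 units higher in WT cells (adjusted p = 0.0298) and rose by 1.34 ± 0.12 with the block (adjusted p = 2.86e-17). Without each replicate number in turn the blocked value ran from 1.05 to 1.54 and passed each time. The Top1 cKO value was 0.88 ± 0.33 higher (adjusted p = 0.876) and rose by 0.95 ± 0.09 with the block (adjusted p = 2.66e-20), again with each number left out. Top1 deletion alone gave 0.19 ± 0.40 (95% interval −0.65 to 1.03, adjusted p = 1). The interaction was −0.35 ± 0.56 (adjusted p = 1), with an interval from −1.52 to 0.82. With the block it was −0.40 ± 0.17 (adjusted p = 0.214), and its interval, not adjusted for the number of genes, ran from −0.74 to −0.056. It passed in neither fit, so a smaller rise of Vim in Top1 cKO cells was neither shown nor excluded.

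Other intermediate filament genes split. Of 9 listed, Ina, the neuronal α-internexin, was higher in WT-Topot (log2 fold change 0.84, adjusted p = 0.00433), and Gfap, the filament of astrocytes, was lower (−2.54, adjusted p = 1.74e-04). With the block Synm, a filament protein that assembles with vimentin, also rose (0.97, adjusted p = 2.23e-07) and Nefl, a neurofilament subunit, fell (−0.51, adjusted p = 4.18e-04). The share of all genes that passed in this comparison was 2.72% without the block and 8.25% with it. In the Top1 cKO cultures none of the 9 passed without the block. With it Synm rose (0.47, adjusted p = 0.00713) and Gfap fell (−1.43, adjusted p = 8.39e-42), beside 2.59% of all genes that passed. Gfap went from 665 ± 425 CPM in WT-Veh to 113 ± 63.0 in WT-Topot, while Vim went the other way.

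Sox2, a transcription factor of neural stem cells, showed no detectable difference. It ranged from 53.0 to 78.7 CPM in WT-Veh, from 63.4 to 78.1 in WT-Topot, from 38.6 to 92.3 in Top1 cKO-Veh and from 40.7 to 84.4 in Top1 cKO-Topot, and all groups overlapped. The log2 fold change with topotecan was 0.08 ± 0.20 in WT cells (95% interval −0.35 to 0.50) and 0.04 ± 0.30 in Top1 cKO cells (−0.59 to 0.67), each with an adjusted p of 1.

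Pax6, a transcription factor of dorsal radial glia, was near the limit of detection, with 4 to 29 counts per library. It ranged from 2.30 to 5.26 CPM in WT-Veh and from 2.86 to 9.72 in WT-Topot, and from 3.21 to 5.51 in Top1 cKO-Veh and 3.32 to 5.97 in Top1 cKO-Topot. The groups overlapped throughout. Its log2 fold changes were 0.45 ± 0.51 in WT cells (95% interval −0.60 to 1.51) and 0.20 ± 0.46 in Top1 cKO cells (−0.79 to 1.18). A difference was not detectable at this depth.

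Hes1, a transcriptional repressor induced by Notch, had its highest levels in the groups with either the drug or the deletion. It measured 4.10, 3.07 and 4.61 CPM in WT-Veh replicates 1 to 3, 9.05, 7.73 and 13.3 CPM in WT-Topot, and 5.87, 5.95 and 13 CPM in Top1 cKO-Veh. In Top1 cKO-Topot it measured 4.38, 3.99 and 5.25 CPM. WT-Topot and Top1 cKO-Veh each lay above WT-Veh without overlap, and Top1 cKO-Topot lay below both of them. These levels rest on 7 to 31 counts per library.

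With topotecan Hes1 was 1.34 ± 0.41 log2 units higher in WT cells (adjusted p = 0.0771, with the block 1.32 ± 0.37, adjusted p = 0.00608). The blocked call was lost without any 1 of the 3 replicate numbers, with values of 1.42, 1.31 and 1.22 at adjusted p = 0.0324, 0.0283 and 0.101. In Top1 cKO cells the value was −0.82 ± 0.44 (adjusted p = 1), and the deletion alone gave 1.04 ± 0.47 (adjusted p = 0.527). The interaction was −2.16 ± 0.59 (adjusted p = 0.0848) and −2.09 ± 0.49 with the block (adjusted p = 0.00323). This blocked call was also lost without any 1 number, with values of −2.37, −2.19 and −1.69 at adjusted p = 0.0174, 0.0108 and 0.147. In Top1 cKO-Topot against WT-Topot Hes1 was −1.13 ± 0.40 (adjusted p = 0.121).

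Hes5, the other Notch-induced repressor of the set, was at 1.15 to 4.68 CPM in WT-Veh, 1.14 to 1.68 in WT-Topot, 2.75 to 3.91 in Top1 cKO-Veh and 1.59 to 3.06 in Top1 cKO-Topot, from 2 to 16 counts per library. WT-Topot overlapped WT-Veh, and its log2 fold change of −0.96 ± 0.68 (adjusted p = 0.709) had the sign opposite to that of Hes1. Without WT-Veh replicate 1, the highest of its group, the value was −0.12.

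The wider Notch pathway held 17 listed genes. None passed without the block in the drug or deletion comparisons. With it, topotecan in WT cells gave 1 higher, Lfng, which modifies Notch (1.23, adjusted p = 0.00234), and 1 lower, Numb, an inhibitor of Notch (−1.01, adjusted p = 4.71e-05), and none in Top1 cKO cells. The shares of all genes that passed with the block were 8.25% in WT and 2.59% in Top1 cKO cells. With the block the deletion alone gave Notch2, a receptor (0.86, adjusted p = 0.0060), and Hey1, a Notch target related to the HES proteins (0.59, adjusted p = 0.00678), both higher, beside 5.56% of all genes that passed. The median of the pathway was 0.18 with topotecan in WT cells.

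Id3 encodes a helix-loop-helix protein that lacks a DNA-binding domain and is induced by BMP signalling. It measured 114, 8.33 and 17.9 CPM in WT-Veh replicates 1 to 3 and 24.1, 0.859 and 4.28 CPM in WT-Topot. In Top1 cKO-Veh it measured 109, 12.8 and 33.1 CPM, and in Top1 cKO-Topot 39.8, 12 and 14.9 CPM. The groups overlapped because replicate 1 was far above the others in each, and within every number the topotecan library was the lower one. The 0.859 CPM of WT-Topot replicate 2 was 3 counts.

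In WT cells Id3 was −2.28 ± 0.76 with topotecan (adjusted p = 0.116). Leaving out 1 library moved this value from −0.40 (without WT-Veh replicate 1, adjusted p = 1) to −4.33 (without WT-Topot replicate 1, adjusted p = 6.87e-06), and it also passed without WT-Veh replicate 2 (−2.78) or 3 (−2.64). It fell with the block by the same amount (−2.28 ± 0.26, adjusted p = 2.62e-12), which held without each number, from −2.46 to −2.19. Thus Id3 and Nes had opposite signs. In Top1 cKO cells it was −1.20 ± 0.57 (adjusted p = 1) and −1.01 ± 0.19 with the block (adjusted p = 2.30e-05), a call that was lost without replicate 1 (−0.64, adjusted p = 0.563). Between the topotecan groups Id3 was higher in Top1 cKO-Topot, by 1.17 ± 0.58 (adjusted p = 0.371) and by 1.5 ± 0.30 with the block (adjusted p = 1.47e-04), with a value of 1.39 without replicate 3 (adjusted p = 0.295). That fit called 7 of all 23893 genes, and the fit with all replicates called 2076. Without replicate 1 or 2 the value was 2.55 or 1.04 and passed. The interaction was 1.09 ± 1.21 (adjusted p = 1, with the block 0.0409). Summed mural and fibroblast markers were likewise highest in replicate 1 of each group, and their part in the Id3 values was not tested.

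Id1, of the same family, ranged from 3.07 to 18.1 CPM in WT-Veh, 3.43 to 9.05 in WT-Topot, 5.04 to 14.9 in Top1 cKO-Veh and 5.68 to 10.8 in Top1 cKO-Topot. The groups overlapped. Its log2 fold change was −0.97 ± 0.51 with topotecan in WT cells (adjusted p = 0.470) and −0.21 ± 0.44 in Top1 cKO cells, and replicate 2 had the opposite sign in both. Of 17 genes of the BMP and Id pathway none passed for topotecan in either genotype or for the deletion, with or without the block. With the block 3 were higher and 1 lower in Top1 cKO-Topot against WT-Topot (8.69% of all genes passed). In Top1 cKO-Topot against WT-Veh 1 was higher with the block (7.37%). Id2, another family member, was −0.36 with topotecan in WT cells (adjusted p = 0.650), and Bmpr2, a BMP receptor and the most abundant by CPM, was −0.20 (adjusted p = 0.873).

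Fabp7, the brain fatty acid binding protein of radial glia, measured 35.7, 35.1 and 13.2 CPM in WT-Veh replicates 1 to 3 and 59.7, 25.2 and 47.5 CPM in WT-Topot. It measured 48.5, 33 and 90.2 CPM in Top1 cKO-Veh and 60.5, 58.4 and 38.9 CPM in Top1 cKO-Topot. WT-Veh replicate 3 was low and Top1 cKO-Veh replicate 3 was high. With topotecan it was 0.63 ± 0.33 in WT cells (adjusted p = 0.466) and −0.08 ± 0.30 in Top1 cKO cells (adjusted p = 1). With deletion alone it was 0.99 ± 0.37 (adjusted p = 0.370) and rose by 0.87 ± 0.19 with the block (adjusted p = 1.43e-04), a call that rested on replicate 3, without which the value was 0.19 (adjusted p = 1). In Top1 cKO-Topot against WT-Veh the blocked value of 0.96 ± 0.20 (adjusted p = 5.69e-04) was 1.07 without replicate 1 (adjusted p = 0.204), in a fit that called 0 of all 23893 genes against 1760 with all replicates, and 0.77 without replicate 3 (adjusted p = 0.0190).

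In the same comparison Vim was 1.08 ± 0.33 (adjusted p = 0.0732) and rose by 1.19 ± 0.13 with the block (adjusted p = 2.37e-09). Without replicate 1, in the fit that called no gene, the value was 1.37 (adjusted p = 0.0404), and it passed without replicate 2 or 3. The corresponding value of Nes was 1.77 ± 0.27.

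Msi1, an RNA-binding protein of neural stem cells, measured 10.8, 7.89 and 2.88 CPM in WT-Veh replicates 1 to 3 and 14.7, 13.2 and 6.0 CPM in WT-Topot. It measured 16.8, 8.47 and 4.01 CPM in Top1 cKO-Veh and 8.76, 6.64 and 2.62 CPM in Top1 cKO-Topot. The groups overlapped, and replicate 3 was the lowest of each. Within each number the value was higher with topotecan in WT cells, by 0.41 to 0.85 on the log2(CPM + 1) scale, and the value was lower with topotecan in Top1 cKO cells, by −0.87 to −0.31. The fitted values were 0.61 ± 0.43 (adjusted p = 0.710) and −0.68 ± 0.50 (adjusted p = 1). The interaction was −1.30 ± 0.72 (adjusted p = 0.747) and −1.33 ± 0.43 with the block (adjusted p = 0.0554).

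**Figure D3:**
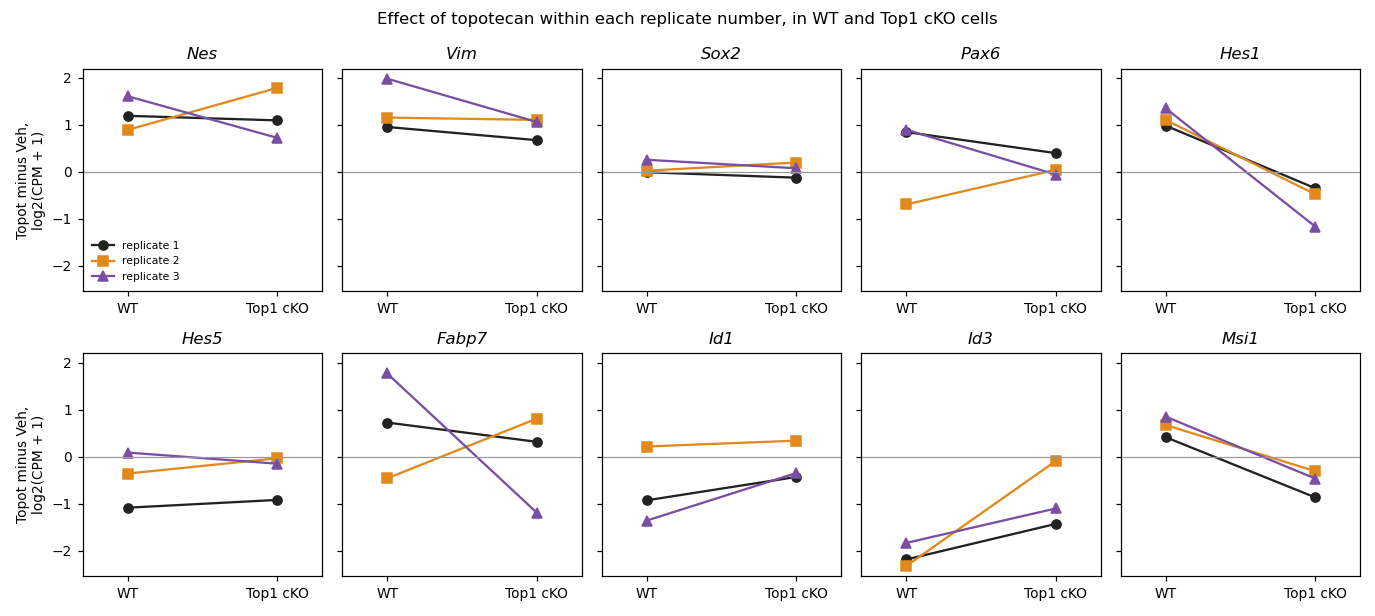
Topotecan minus vehicle within each replicate number on the log2(CPM + 1) scale (y axis, shared by all panels) in WT and Top1 cKO cells (x axis), with 1 line per replicate number for each of the 10 genes. Nes and Vim lie above 0 in both genotypes, Hes1 and Msi1 lie above 0 in WT cells and below 0 in Top1 cKO cells for all 3 numbers, and Id3 lies below 0 throughout.

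Beyond the 10 genes, 15 further genes of radial glia and neural stem cells were listed, 14 of them averaging 1 CPM or more. With topotecan in WT cells none was higher and 1 lower without the block (2.72% of all genes passed), and 1 was higher and 2 lower with it (8.25%). The lower ones were Slc1a3, the glutamate transporter of radial glia and astrocytes (−1.52, adjusted p = 0.00106), and, with the block, Ptprz1, a receptor phosphatase (−0.83, adjusted p = 1.63e-06). The higher one with the block was Lhx2, a cortical transcription factor (0.88, adjusted p = 1.01e-06). In Top1 cKO cells none passed without the block and 3 were lower with it (2.59% of all genes passed), Slc1a3 (−1.17, adjusted p = 5.79e-30), Ptprz1 (−0.81, adjusted p = 7.33e-11) and Fgfr3, a growth factor receptor (−0.91, adjusted p = 5.76e-04). With the deletion alone, the block gave Hopx (1.05, adjusted p = 1.21e-11) and Msi2 (0.52, adjusted p = 0.00147) higher, beside 5.56% of all genes that passed. The median of the list was 0.13 with topotecan in WT cells and −0.16 in Top1 cKO cells.

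Genes of the steps after the stem cell were measured as well. Of 8 genes of intermediate progenitors and proneural factors none passed with topotecan in WT cells, with or without the block, and Neurog1 was at 0 in all libraries. Btg2, an antiproliferative gene of neurogenic progenitors, was higher in Top1 cKO-Topot than in WT-Topot (1.15, adjusted p = 0.00196) and in WT-Veh (1.46, adjusted p = 7.12e-04), going from 34.5 ± 4.17 CPM in WT-Veh to 94.1 ± 27.4 in Top1 cKO-Topot. In these 2 comparisons 2.49% and 1.68% of all genes passed. With the block Btg2 also rose with topotecan in Top1 cKO cells (0.73, adjusted p = 4.69e-05, beside 2.59% of all genes) and with the deletion (0.67, adjusted p = 0.00418, beside 5.56%). Of 8 genes of immature neurons, Neurod1, a transcription factor of newborn neurons, rose in WT-Topot from 18.8 ± 3.23 to 60.3 ± 12 CPM (1.67, adjusted p = 1.36e-04). With the block Stmn1 (0.99, adjusted p = 4.33e-09), Tubb3 (0.45, adjusted p = 0.00112) and Sox11 (0.52, adjusted p = 0.00747) rose too. The share of all genes that passed with topotecan in WT cells was 2.72% without the block and 8.25% with it. Among Top1 cKO cultures none of the 8 passed without the block, and with it Sox11 rose (0.64, adjusted p = 1.43e-04) and Tubb3 fell (−0.36, adjusted p = 0.00133), beside 2.59% of all genes that passed.

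Genes of dividing cells were low. The summed level of 14 proliferation genes was 37.8 to 61.2 CPM over the 12 libraries, and none of the 14 passed in any comparison, with or without the block. Pcna, a replication factor and the most abundant of them, was −0.20 with topotecan in WT cells (adjusted p = 1), and 6 of the 14 averaged 1 CPM or more.

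Astrocyte markers that passed the test were lower with topotecan, the direction opposite to Nes and Vim. The summed level of the 9 markers was 2389 to 4774 CPM in WT-Veh and 1280 to 2097 in WT-Topot, and 2638 to 6058 in Top1 cKO-Veh and 1788 to 3421 in Top1 cKO-Topot. In WT cells none of the 9 was higher and 2 were lower, Gfap and the glutamate transporter gene Slc1a2 (−1.39, adjusted p = 1.85e-04), beside 2.72% of all genes that passed. With the block 5 were lower, among them Aqp4 (−1.80, adjusted p = 1.95e-19) and Gja1 (−1.32, adjusted p = 1.27e-11), beside 8.25% of all genes. Glul, glutamine synthetase, was −0.38 (adjusted p = 0.579). In Top1 cKO cells none passed without the block and 4 were lower with it (2.59% of all genes passed). The medians were −1.39 and −0.64, beside 0.03 and 0.00 over all genes. Astrocytes also express Vim, Id3, Fabp7, Sox2 and Slc1a3, and the part of these cells in the values of the 10 genes was not tested.

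The summed markers of every other cell type listed lay below those of astrocytes and of neurons in every library, with different numbers of markers summed. The summed level of 7 endothelial markers was 0.874 to 6.01 CPM, with the defining marker Emcn at 0 in all libraries, Cldn5 at 0 in 3 groups, and Kdr and Flt1 the most abundant. That of 7 microglia markers, led by C1qa and C1qb, was 0.437 to 17.6 CPM. With the block 1 of them, C1qb, was lower with the deletion, at 4.62 ± 3.38 CPM in WT-Veh and 0.903 ± 0.810 in Top1 cKO-Veh. Mural and fibroblast markers, led by Col3a1 and Dcn, summed to 34.1 to 285 CPM, and none of the 10 passed with topotecan in WT cells. In Top1 cKO cells none passed without the block, and with it 1 was higher, Rgs5, and 1 lower, Col1a2. In Top1 cKO-Topot against WT-Topot 1 was higher in both fits. Oligodendrocyte lineage markers, led by Mbp and Olig1, summed to 96.2 to 294 CPM. With the block Olig1, a transcription factor of oligodendrocyte precursors, was higher with topotecan in WT cells (1.38, adjusted p = 9.62e-08) and with the deletion (1.51, adjusted p = 3.39e-13). The 8 neuron markers summed to 5242 to 7674 CPM. With topotecan in WT cells 1 of them was lower without the block, Rbfox3, the gene of the neuronal marker NeuN (−0.96, adjusted p = 0.00209). With the block 5 were lower and 1 higher. The lower ones were Rbfox3, Gad1 (−0.98, adjusted p = 4.31e-11) and Gad2 (−0.94, adjusted p = 2.95e-10) of inhibitory neurons, Snap25 (−0.53, adjusted p = 3.43e-06) and Map2 (−0.42, adjusted p = 2.79e-04), and the higher one was Slc17a7, a vesicular glutamate transporter (0.45, adjusted p = 7.87e-05). Camk2a, the gene whose promoter drove the virus, was 0.04 (adjusted p = 1). In Top1 cKO cells none of the 8 passed in either fit. Beside these markers, 2.72% of all genes passed with topotecan in WT cells without the block and 8.25% with it. With the block 2.59% passed with topotecan in Top1 cKO cells and 5.56% with the deletion. Between the topotecan groups 2.49% passed without the block and 8.69% with it.

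**Figure D4:**
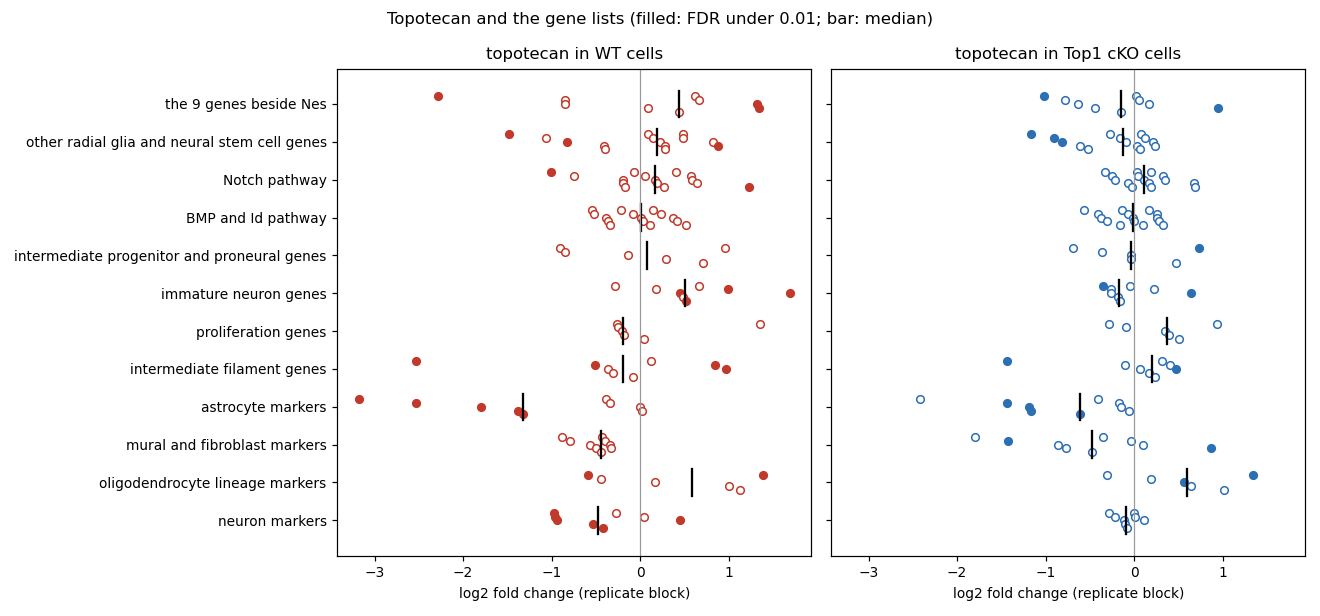
Log2 fold change with topotecan, with the replicate block (x axis), of every gene averaging 1 CPM or more in each gene list (y axis), in WT cells on the left and in Top1 cKO cells on the right; filled points passed an FDR of 0.01 and the black bar is the median. Astrocyte markers lie mostly below 0, while the 9 genes beside Nes spread from −2.28 to 1.34 in WT cells.

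The genes whose levels followed Nes most closely were not progenitor genes of the set. Over the 12 libraries, the Pearson correlation of log2(CPM + 1) with Nes was highest for Tceb3 (0.92), an elongin subunit, Gpd1 (0.92), a glycerol phosphate dehydrogenase, Smad5 (0.92), a BMP signal transducer, Sertad2 (0.91) and Fam53c (0.91). The 12 points share their groups and replicate numbers, so these values are descriptive. Vim, a gene of the set and so not ranked, had 0.84, and 28 of the 13710 ranked genes had at least that value. The remaining 8 ranged from −0.11 (Hes5) to 0.55 (Fabp7). With the group means removed, Sox2 (0.87), Msi1 (0.82) and Vim (0.78) followed Nes from culture to culture and Hes1 went the other way (−0.45).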

How the data were processed

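RNA-seq of 12 libraries was used, 3 cultures in each of 4 groups, with groups and replicate numbers taken from the labels. Read pairs of 50 bp were cleaned by the authors with TagDust and mapped with TopHat to mm9, rRNA reads were dropped, and the authors deposited raw counts over RefSeq exons by gene symbol, with no normalization. The counting program, its use of strand and the versions are not given in the sources used here, so reads of overlapping genes may be shared. No column of other samples was in the table (0).

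From the counts, edgeR's quasi-likelihood test (edgeR 4.0.16, R 4.3.3, TMM scaling, no filter) was run on the 6 libraries of each pair of groups and, for the interaction, on all 12, with Benjamini-Hochberg adjustment over 23893 genes and an FDR threshold of 0.01. Values after ± are SE for fold changes and SD for CPM. The replicate number entered as a block in an alternative fit. The labels' numbers pair the cultures: deviations from group means over 13720 genes correlated at 0.261 to 0.485 in 18 same-numbered pairs of libraries and at −0.384 to −0.0494 in 36 pairs with different numbers, though no source says what a number stands for. Libraries of a group were no repeats of each other (dispersion index of their counts 6.05 to 10.1, where sampling noise gives 1). Other alternatives were DESeq2 1.42.0 (its size factors and its Wald test), edgeR's filter on low counts, 1 fit of all 12 libraries and leaving out each library. The scripts were tested on simulated counts.

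The members and the gene lists were chosen with earlier results of these data known. Named were all members, up to 4 genes of each list past the threshold per comparison, the most abundant or most changed gene of a list where none passed, the 2 most abundant markers of each cell type and the 5 genes outside the set most like Nes. Coordinates came from GENCODE vM1 on NCBIM37, and promoter windows from RefSeq on GRCm38. Without the block, the spread of a gene is that between the 3 cultures of a group. With the block, it is what is left once the part shared by same-numbered cultures is taken out. In both fits edgeR moderated the spread of a gene with that of all genes. The 95% intervals are so narrow for their SE that the p-values, above all the blocked ones, rest mostly on the spread of all genes. Very small blocked p-values are therefore no measure of how alike the 3 cultures were for that gene.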

Additional observations from a re-analysis of the deposited data

Results flagged for a closer look

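Hes1 and Msi1 were picked because the difference between topotecan and vehicle had opposite signs in all 3 WT and all 3 Top1 cKO pairs of cultures. How many of all genes show these signs was not counted. Neither gene passed in Top1 cKO cells in either fit, and Msi1 did not pass in WT cells. The effect on Hes1 in Top1 cKO cells minus that in WT cells was −2.16 ± 0.59 log2 units (interaction, edgeR's quasi-likelihood test, adjusted p = 0.0848, and 0.00323 with the replicate block). All 3 replicate numbers were higher with the drug in WT cells, by 0.98 to 1.35 on the log2(CPM + 1) scale, and all 3 were lower in Top1 cKO cells, by −1.17 to −0.35. For Msi1 the difference was −1.30 ± 0.72 (adjusted p = 0.747, and 0.0554 with the block), so it did not pass in either fit. The signs, 3 of 3 in each genotype, are the rule that picked both genes and are no added support.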

How the results depend on the processing

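Without the replicate block no member beside Nes passed an FDR of 0.01 in any comparison, nor with DESeq2's size factors, its Wald test, the filter on low counts or 1 fit of all 12 libraries. With the replicate block 3 passed for topotecan in WT cells, 1 for the deletion, 2 for topotecan in Top1 cKO cells, 1 in Top1 cKO-Topot against WT-Topot, 2 in Top1 cKO-Topot against WT-Veh and 1 for the interaction. Without the block but with 1 library left out, 1 to 2 passed for topotecan in WT cells, with Vim passing in 4 of the 6 fits and Id3 in 3, and 0 to 1 passed for topotecan in Top1 cKO cells and in Top1 cKO-Topot against either WT group. With the block and 1 replicate number left out, an alternative added after the data were seen, the counts were 2 to 3 for topotecan in WT cells, 0 to 1 for the deletion, 1 to 2 for topotecan in Top1 cKO cells, 0 to 1 in Top1 cKO-Topot against WT-Topot, 0 to 3 in Top1 cKO-Topot against WT-Veh and 0 to 1 for the interaction. Of these fits, Top1 cKO-Topot against WT-Veh without replicate 1 called 0 and Top1 cKO-Topot against WT-Topot without replicate 3 called 7 of all 23893 genes. The sign turned for Pax6 with the deletion under DESeq2's Wald test (0.0031) and for Fabp7 with topotecan in Top1 cKO cells under the replicate block (0.021). Leaving out 1 library turned the sign of further small or uneven changes, given as their lowest and highest log2 fold change. For topotecan in WT cells these were Sox2 from −0.058 to 0.20 and Pax6 from −0.13 to 0.80. For the deletion these were Vim from −0.41 to 0.85, Sox2 from −0.32 to 0.25, Pax6 from −0.27 to 0.19, Id1 from −0.82 to 0.46, Id3 from −1.13 to 2.0 and Msi1 from −0.20 to 0.82. For topotecan in Top1 cKO cells these were Sox2 from −0.22 to 0.34, Pax6 from −0.018 to 0.42, Fabp7 from −0.39 to 0.40, Id1 from −0.55 to 0.34, Id3 from −1.94 to 0.014 and Olig1 from −0.021 to 0.97. In Top1 cKO-Topot against WT-Topot these were Vim from −0.55 to 0.19, Sox2 from −0.24 to 0.20, Pax6 from −0.64 to 0.30 and Fabp7 from −0.026 to 0.56. In Top1 cKO-Topot against WT-Veh these were Sox2 from −0.16 to 0.29, Pax6 from −0.065 to 0.38, Hes5 from −0.42 to 0.71, Id1 from −0.89 to 0.26, Id3 from −1.83 to 0.80 and Msi1 from −0.64 to 0.14. For the interaction these were Nes from −0.18 to 0.34, Vim from −1.01 to 0.25, Sox2 from −0.30 to 0.26, Pax6 from −0.61 to 0.32, Hes5 from −0.34 to 0.81 and Id3 from −0.82 to 3.15. The cause of these changes was not tested. Of 1453 values of single genes under an alternative, 1259 were counted as unchanged. For tested genes this meant the same sign and side of the threshold, with a missing adjusted p counted as not passing. For Nes it meant the same sign and a shift smaller than its largest SD within a group. The replicate block changed no call of a member other than those given beside the results. Depth limits Hes5, Id3, Pax6, Msi1, Hes1 and Id1 most, where single libraries held 2 to 7 counts.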
